A study of Homo sapiens with 12 samples.

Results

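The 39 genes described here carry glucose and monocarboxylates across the membrane (7 genes), run or set the pace of glycolysis (18 genes), handle pyruvate and lactate (7 genes) or belong to the pentose phosphate pathway and its NADPH supply (7 genes). They were chosen by gene symbol, with earlier results of these data known. All 39 have a row in the table of estimated counts and hold at least 10 counts over the 12 libraries, as do 17173 of the 28901 named genes of the whole table. All 39 passed the low-count filter in each comparison.

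Human adipocytes were made from ASC52telo hTERT, an immortalized line of adipose-derived mesenchymal stem cells, after lentiviral delivery of either a scramble shRNA or an shRNA against linc-ADAIN, a long intergenic noncoding RNA of adipose tissue. The question was what knockdown (KD) of linc-ADAIN does to the adipocyte transcriptome at rest and under lipopolysaccharide (LPS), a bacterial product that triggers an innate inflammatory response. Poly(A) RNA was sequenced from 4 groups of 3 libraries each. The scramble and KD groups received no LPS, and the scramble LPS and KD LPS groups received 100 ng/mL LPS for 4 hours. All 12 libraries share the pLVX-shRNA2 vector with its ZsGreen reporter, a sort for ZsGreen-positive cells, and 14 days of culture that began in medium with insulin, dexamethasone, isobutylmethylxanthine and rosiglitazone. Each shRNA is represented by a sorted pool of the same line, and the authors give the RNA-seq upon KD as N = 1 in triplicate. The p-values thus measure the spread between libraries of 1 line, which may be technical. They do not cover repeat experiments, other pools or other donors. How far the shRNA lowered linc-ADAIN was not analysed here.

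Glucose enters adipocytes through facilitative transporters of the SLC2A (GLUT) family and is trapped as glucose 6-phosphate by hexokinases. Glycolysis then turns it into pyruvate, which is reduced to lactate and exported by SLC16A (MCT) carriers or oxidized in mitochondria through the pyruvate dehydrogenase complex, whose activity the PDK kinases restrain. The pentose phosphate pathway branches off at glucose 6-phosphate and yields ribose and NADPH, and malic enzyme adds NADPH from malate. Adipocytes are known for spending that NADPH on fatty acid synthesis, and innate immune stimuli are known to alter glycolysis in many cell types.

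The libraries held 28381782 to 53837400 estimated counts on named genes, and the 39 genes took 0.887% to 1.14% of them. LPS raised all 10 of 10 genes of an LPS response list in both shRNA backgrounds (5.9% of all genes in scramble and 5.32% in KD). CXCL8 rose by 1.69 in scramble and 1.85 in KD and ICAM1 by 2.70 and 2.36 on the log2 scale. Of 14 adipocyte markers tested, 11 were lower and 0 higher in KD without LPS (15.1% and 12.1% of all genes). With LPS, 12 of these markers were lower (14.2% of all genes). Their summed level was 3854 to 5193 CPM (a gene's counts relative to its library's TMM-scaled total) in scramble, 4368 to 5099 in scramble LPS, 863 to 2283 in KD and 689 to 1452 in KD LPS, so the KD libraries lay below the scramble libraries throughout. CIDEA had under 10 counts in all, and LEP and LPL, which adipocytes are also known for, held at most 21 and 82 counts in a library. ADIPOQ, another of the markers, reached 53099 counts in a library. Among the markers, FABP4 was at -1.65 without and -2.26 with LPS and PLIN4 at -1.61 and -2.45. The paper reports the opposite for adipogenic markers in hTERT adipocytes, with higher mRNA by qPCR and higher protein upon KD, FABP4 among them. It also reports more stored lipid upon KD. Why the sequenced libraries differ from those assays was not tested. Stromal and preadipocyte markers summed to 8933 to 9602 CPM in scramble and 8798 to 10018 in KD. However, 4 of 11 were higher and 4 lower without LPS (12.1% and 15.1% of all genes). With LPS, 4 were higher and 5 lower (12.7% and 14.2% of all genes). DPP4 was at 2.08 and 2.40, COL1A1 at 0.66 and 0.77, THY1 at -2.37 and -2.53 and ENG at -1.36 and -1.42. Macrophage markers summed to 57.3 to 60.5 CPM in scramble and 88.6 to 117 in KD, a difference carried by CD163 (3.99 and 4.11), while CD68 fell by 0.78 and 1.25, the leukocyte gene PTPRC held at most 12 counts and ITGAM, TYROBP and C1QA had under 10 counts each. Endothelial markers summed to 24 to 27.8 CPM in scramble and 12.5 to 13.4 in KD, with VWF at -2.12 and -2.77 and TEK at -1.79 and -0.80. Cell cycle markers summed to 77 to 122 CPM in scramble and 134 to 169 in KD. Without LPS, 5 of 9 were higher (12.1% of all genes), RRM2 (1.03) and CDK1 (1.00) among them, and 2 with LPS (12.7% of all genes). In bulk RNA, fewer adipocytes and less of a transcript per adipocyte cannot be told apart.

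In linc-ADAIN KD adipocytes without LPS, the pentose phosphate genes PGD, TALDO1, TKT and RPE and the malic enzyme gene ME1 fell, as did the glucose transporter gene SLC2A1 and the glycolytic genes PFKP, GPI, ALDOA and HK1, LDHA and PDK1. The glucose transporter gene SLC2A3 and the lactate exporter gene SLC16A3 rose. The glycolytic genes that follow the triose stage (GAPDH, PGK1, PGAM1, ENO1 and PKM) differed by at most 0.10 on the log2 scale and did not pass the test. By edgeR's quasi-likelihood test at an adjusted p under 0.05, 4 of 39 genes were higher (10.3%, against 12.1% of all genes tested) and 12 were lower (30.8%, against 15.1%). A change of at least 2-fold at the same adjusted p was found for 3 of 39 (7.69%, against 7.77%), PGD, SLC16A3 and PDK3, and for 2 of them without PDK3, which is near 0 counts. The share of higher and of 2-fold members is thus near that of all genes, and the share of lower members is above it. Because the members were chosen with earlier results of these data known, these shares are a description only. The median log2 fold change was -0.12 over the 39 genes and 0.02 over all genes.

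With LPS in both arms, KD gave 5 higher members (12.8%, against 12.7% of all genes) and 11 lower (28.2%, against 14.2%), with 3 changed at least 2-fold (7.69%, against 8.48%). This comparison uses 6 other libraries than the one without LPS. In both, 13 members passed the test, 12 of them in the same direction, and SLC2A1 in opposite directions. Over all 15362 genes tested in both, 2996 passed in both and 2977 of these went the same way. Scaling by library size alone moved the split of all called genes toward higher, from 44.5% to 61.4% without LPS and from 47.2% to 59.2% with LPS, and the member counts to 6 higher and 10 lower without LPS and 7 higher and 9 lower with LPS.

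**Figure D1:**
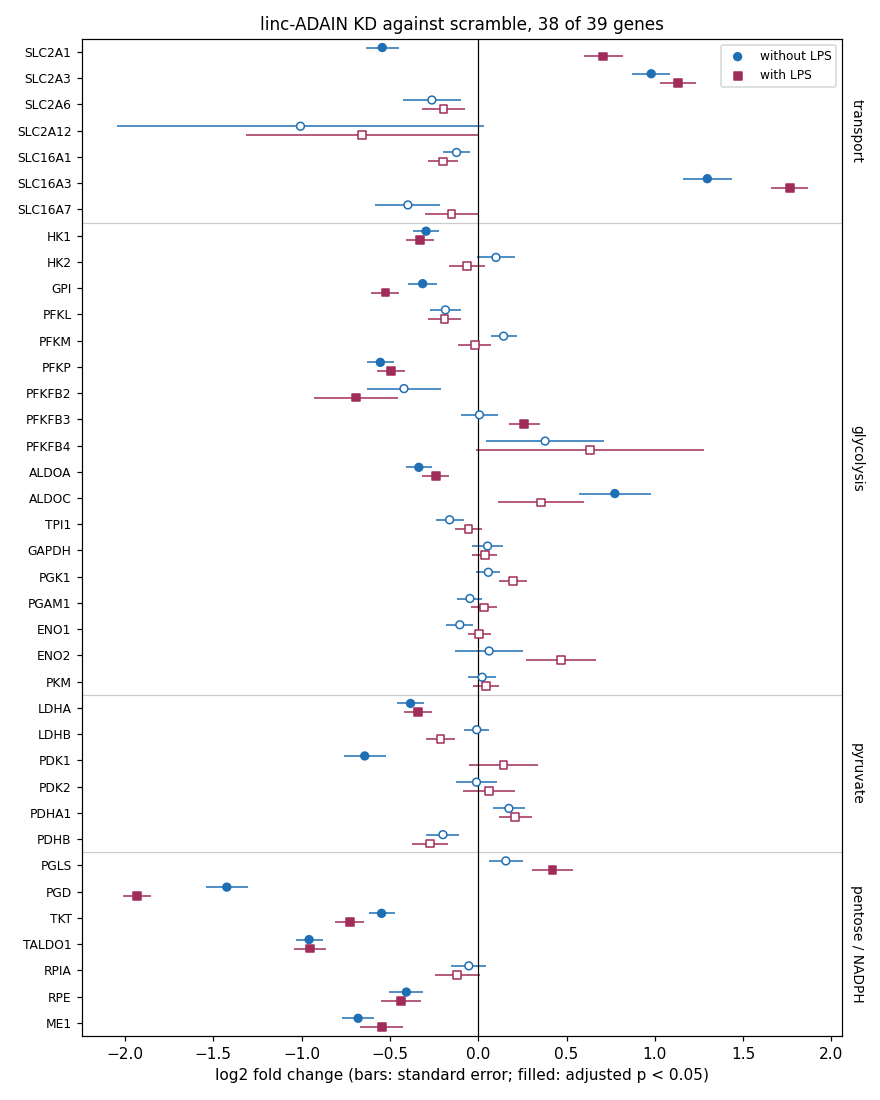
Log2 fold change (horizontal axis) of 38 of the 39 genes in KD against scramble, without LPS (blue circles) and with LPS (purple squares), grouped by role. Bars are standard errors and filled symbols passed at an adjusted p under 0.05. PDK3, at 0 counts in 8 of the 12 libraries, is left out. PGD lies farthest to the left at -1.42 and -1.93, SLC16A3 farthest to the right at 1.30 and 1.76, and SLC2A1 on opposite sides of 0.

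Among transporters, SLC2A3 and SLC16A3 were the members with the largest rise in KD. SLC2A3 encodes GLUT3, a high-affinity glucose transporter. It stood at 47.5, 54.3 and 56.3 CPM in the scramble libraries and 108, 115 and 88.0 CPM in the KD libraries. With LPS the values were 38.7, 44.3 and 44.2 CPM in scramble and 104, 85.9 and 89.1 CPM in KD. Each KD library exceeded each scramble library. The log2 fold change was 0.98 ± 0.11 (SE) without LPS and 1.13 ± 0.10 with LPS (adjusted p = 3.7e-05 and 1.5e-06). SLC2A14, a close paralog with which reads of SLC2A3 may be shared, was also called higher, at 1.39 and 1.80, from levels of 0.696 and 0.516 CPM in the scramble arms, so the division between both genes is uncertain.

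SLC16A3 encodes MCT4, the lactate exporter of glycolytic cells. The scramble libraries held 55.1, 52.4 and 47.0 CPM and the KD libraries 108, 111 and 160 CPM. Under LPS the scramble libraries held 28.0, 25.3 and 30.1 CPM and the KD libraries 84.4, 99.8 and 99.4 CPM. KD was higher in every library of either pair, by 1.30 ± 0.14 without and 1.76 ± 0.10 with LPS on the log2 scale (adjusted p = 2.7e-05 and 3.0e-08), which is 2.46-fold and 3.39-fold. SLC16A1, which encodes MCT1, showed -0.12 and -0.20 and did not pass in either KD comparison.

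SLC2A1, which encodes the basal glucose transporter GLUT1, was the member whose KD effect turned with LPS. Its levels were 72.5, 74.9 and 87.2 CPM in scramble, 41.3, 53.8 and 48.8 in scramble LPS, 52.0, 51.1 and 57.5 in KD, and 69.5, 81.0 and 84.3 in KD LPS. KD without LPS lay below scramble, while KD LPS lay above scramble LPS, with no overlap in either comparison. The log2 fold change with KD was -0.54 ± 0.09 without LPS and 0.71 ± 0.11 with LPS (adjusted p = 0.00094 and 0.0003). Put the other way, SLC2A1 fell with LPS in scramble by 0.69 ± 0.11 and rose in KD by 0.55 ± 0.10 (adjusted p = 0.0012 and 0.0015). The interaction term was 1.25 ± 0.15 with an adjusted p of 0.00025, and SLC2A1 was the only 1 of 39 members to pass for the interaction, which 1.28% of all genes did.

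The remaining transporters did not pass with KD. SLC2A6, the gene for the lysosomal transporter GLUT6, and SLC16A7, for the carrier MCT2, were at -0.26 and -0.40 without LPS and at -0.20 and -0.15 with LPS. SLC2A12, at most 46 counts in a library, was at -1.01 ± 1.04 and -0.66 ± 0.66 (adjusted p = 0.53 in both). Of 12 other hexose and monocarboxylate transporter genes tested without LPS, 2 were higher and 2 lower (12.1% and 15.1% of all genes). SLC2A10, which encodes GLUT10, rose by 1.64 ± 0.11 and 1.52 ± 0.10, from 23.5, 21.7 and 22.4 CPM in scramble to 61.9, 67.5 and 80.8 CPM in KD. SLC16A4 fell by 1.52 and 1.45 on the log2 scale, and BSG, the chaperone basigin that carries MCT1 and MCT4 to the cell surface, fell by 0.53 and 0.62. SLC2A4, the gene for the insulin-responsive transporter GLUT4 and named here after its values were seen, held at most 22 counts in any library.

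**Figure D2:**
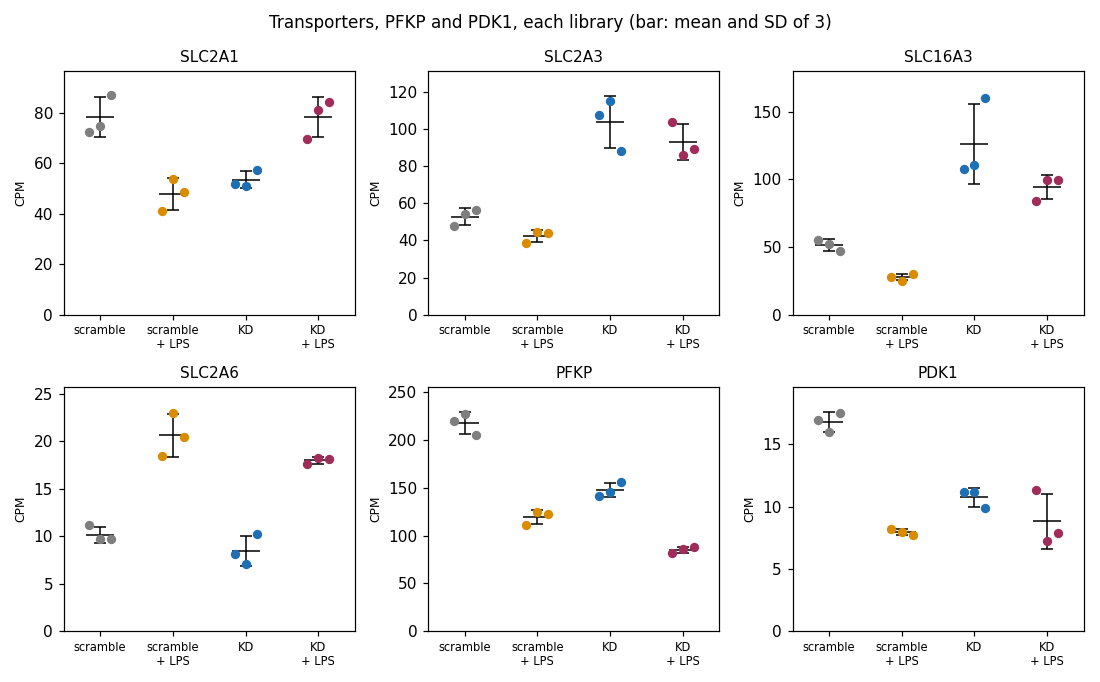
CPM of SLC2A1, SLC2A3, SLC16A3, SLC2A6, PFKP and PDK1 in each of the 12 libraries (points), with the mean and SD of each group of 3 (bars). SLC2A1 averages 78.2 CPM in scramble and 78.3 in KD LPS, with 47.9 and 53.5 in the other groups, and SLC16A3 is above 80 CPM in all 6 KD libraries and below 60 in all 6 scramble libraries.

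At the first steps of glycolysis, HK1, GPI and PFKP were lower in KD with and without LPS. HK1, the broadly expressed hexokinase, held 149, 155 and 143 CPM in scramble and 121, 117 and 126 in KD, a change of -0.29 ± 0.07 (adjusted p = 0.0097). With LPS it was -0.33 ± 0.08. HK2, the inducible and insulin-regulated hexokinase, did not pass, at 0.10 and -0.07. GPI, the isomerase that follows, fell by 0.31 and 0.52 on the log2 scale, the larger value being from 220, 196 and 200 CPM in scramble LPS to 141, 151 and 136 CPM in KD LPS (adjusted p = 0.00022).

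PFKP, the platelet-type subunit of phosphofructokinase, held 220, 228 and 205 CPM in scramble and 142, 145 and 157 CPM in KD. With LPS it held 111, 124 and 123 CPM in scramble and 81.2, 85.7 and 87.8 CPM in KD. KD was lower in each library, with changes of -0.55 ± 0.08 and -0.49 ± 0.08 (adjusted p = 0.0002 and 0.00041). PFKL and PFKM, the liver and muscle subunits, stood at -0.19 and 0.14 without LPS and did not pass. Of the PFKFB genes, whose products set the level of fructose 2,6-bisphosphate and so the pace of phosphofructokinase, PFKFB3 was at 0.01 without LPS and rose by 0.26 ± 0.09 with LPS (adjusted p = 0.042), and PFKFB2 fell with LPS by 0.69 from 5.19, 5.85 and 7.10 CPM to 3.08, 3.81 and 4.36 CPM (adjusted p = 0.045). Neither call held throughout: without scramble LPS replicate 1 the adjusted p of PFKFB3 was 0.14, and without scramble LPS replicate 3 that of PFKFB2 was 0.19.

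Further down, ALDOA, the main aldolase, fell by 0.34 and 0.24 on the log2 scale, from 814, 791 and 755 CPM in scramble to 647, 575 and 643 CPM in KD. ALDOC, a minor aldolase, rose without LPS by 0.77 ± 0.21 (adjusted p = 0.015), from 3.87, 3.82 and 4.28 CPM to 6.74, 5.42 and 8.27 CPM. That call was lost without KD replicate 3 (adjusted p = 0.063) or scramble replicate 2 (0.057), and with LPS ALDOC did not pass (0.36). GAPDH, often used as a reference mRNA, held 2337, 1981 and 1935 CPM in scramble and 2138, 2025 and 2307 CPM in KD, and 2276, 1975 and 2065 CPM in scramble LPS and 2093, 2248 and 2145 CPM in KD LPS. The groups overlapped, and its log2 differences of 0.05 and 0.04 in the KD comparisons and 0.03 and 0.00 in the LPS comparisons did not pass. TPI1, PGK1, PGAM1, ENO1, ENO2 and PKM ranged from -0.16 to 0.06 without LPS and from -0.06 to 0.47 with LPS, and none of these 6 passed in edgeR's test. Of 13 other glycolytic genes tested, 0 were higher and 1 was lower without LPS (12.1% and 15.1% of all genes). The lower gene was PGM1, the phosphoglucomutase that links glucose 6-phosphate to glycogen, at -0.31.

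Levels per kilobase of the canonical transcript place these changes in scale. In scramble, GAPDH (1622 CPM per kilobase), LDHA (831), ENO1 (670), ALDOA (480) and PKM (449) led the 39 genes. PGD (185) and TKT (165) ranked 8 and 9, above PFKP (82.8), HK1 (41.3), SLC2A1 (23.1), SLC16A3 (19.8) and SLC2A3 (13.8). The lowest were PFKFB2 (0.888), PFKFB4 (0.401), SLC2A12 (0.101) and PDK3 (0). Summed over the 39 genes, without length correction, the levels were 10639 to 11676 CPM in scramble, 9692 to 10606 in scramble LPS, 9447 to 10024 in KD and 8852 to 9129 in KD LPS, with KD below scramble in either pair. That separation depends on the TMM scaling. As a share of unscaled counts, the 39 genes took 1.032% to 1.142% in scramble and 1.007% to 1.055% in KD. With LPS the shares were 0.9309% to 1.016% in scramble and 0.8873% to 0.9372% in KD, so both pairs overlapped.

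At the pyruvate node, LDHA, the lactate dehydrogenase subunit of glycolytic tissues, fell in KD from 2034, 1760 and 1795 CPM to 1438, 1460 and 1376 CPM. The change was -0.38 ± 0.07 without LPS and -0.34 ± 0.08 with LPS (adjusted p = 0.0025 and 0.0051), while LDHB was at -0.01 and -0.21 and did not pass. PDK1, a pyruvate dehydrogenase kinase, held 16.9, 16.0 and 17.5 CPM in scramble and 11.2, 11.2 and 9.85 CPM in KD, a change of -0.64 ± 0.12 (adjusted p = 0.0018). With LPS the PDK1 groups overlapped, at 8.18, 7.99 and 7.71 CPM in scramble and 11.3, 7.27 and 7.84 CPM in KD. PDK3 was called higher without LPS on 0, 18 and 35 counts in KD against 0 in each scramble library, so the groups overlap and no fold is given, and the call was lost in DESeq2. PDK2, PDHA1 and PDHB, a further kinase and subunits of the pyruvate dehydrogenase, did not pass in either comparison.

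Of 12 other genes of pyruvate handling, 3 were higher and 4 lower in KD without LPS (12.1% and 15.1% of all genes), and the counts were the same with LPS. PDK4, the kinase gene induced by fasting and fatty acids, fell by 1.72 ± 0.33 from 244, 270 and 394 CPM to 136, 97.7 and 40.1 CPM, and by 2.51 ± 0.17 with LPS (adjusted p = 0.0021 and 1.0e-07). PC, pyruvate carboxylase, which feeds oxaloacetate to lipogenesis, fell by 1.54 and 1.85 on the log2 scale. MPC2, a subunit of the mitochondrial pyruvate carrier, rose by 0.71 in both comparisons, and PDP1, a pyruvate dehydrogenase phosphatase, rose by 0.70 and 0.79.

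The pentose phosphate and NADPH members had the largest share of falls among the 4 roles, with 5 of 7 lower and 0 higher in KD without LPS (15.1% and 12.1% of all genes) and 5 lower and 1 higher with LPS (14.2% and 12.7%). The median log2 fold change of the 7 was -0.55 in each comparison, against 0.02 and 0.03 over all genes. PGD, 6-phosphogluconate dehydrogenase (GRCh38 chr1:10398592-10420511, plus strand), makes NADPH in the oxidative branch. It stood at 401, 357 and 500 CPM in scramble and 170, 152 and 146 CPM in KD, and at 608, 624 and 580 CPM in scramble LPS and 168, 160 and 146 CPM in KD LPS. The KD libraries lay below the scramble libraries throughout and within a narrow range of each other. PGD fell by 1.42 ± 0.12 without LPS and by 1.93 ± 0.08 with LPS on the log2 scale (adjusted p = 3.6e-06 and 1.7e-09), that is to 0.373 and 0.262 of scramble. The difference between these effects was -0.50 ± 0.14 and did not pass in edgeR (adjusted p = 0.11) but did in DESeq2.

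TALDO1, transaldolase, and TKT, transketolase, return pentose carbon to glycolysis in the nonoxidative branch. TALDO1 (chr11:747415-765012, plus strand) held 142, 133 and 132 CPM in scramble and 73.7, 66.7 and 68.5 CPM in KD. With LPS it held 155, 142 and 132 CPM in scramble and 75.7, 79.1 and 67.0 CPM in KD. TALDO1 was at 0.515 of scramble without LPS and 0.517 with LPS, and no KD library reached a scramble library, with log2 fold changes of -0.96 ± 0.08 and -0.95 ± 0.09 (adjusted p = 2.8e-06 and 3.7e-06). TKT (chr3:53224712-53256052, minus strand) held 503, 485 and 495 CPM in scramble and 344, 314 and 354 CPM in KD. The fall was -0.55 ± 0.07, and it was -0.73 ± 0.08 with LPS (adjusted p = 0.00017 and 1.6e-05).

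RPE, the ribulose phosphate epimerase, fell from 67.5, 64.0 and 64.4 CPM to 45.0, 56.2 and 46.1 CPM, a change of -0.41 ± 0.10, and of -0.44 ± 0.11 with LPS (adjusted p = 0.0076 and 0.0094). ME1, cytosolic malic enzyme, held 32.1, 31.9 and 31.2 CPM in scramble and 19.5, 20.4 and 19.3 CPM in KD. Its log2 fold change was -0.68 ± 0.09 without and -0.55 ± 0.12 with LPS (adjusted p = 0.00017 and 0.0042), with no overlap between groups. RPIA, the ribose phosphate isomerase that acts beside RPE, was at -0.05 and -0.12 and did not pass. PGLS, the lactonase that acts just before PGD, was at 0.16 without LPS and rose by 0.42 ± 0.11 with LPS (adjusted p = 0.014), from 29.7, 31.8 and 30.4 CPM to 41.5, 46.6 and 34.9 CPM, a call lost without KD LPS replicate 2 (adjusted p = 0.08).

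Of 11 other pentose and NADPH genes tested without LPS, 5 were lower and 2 higher (15.1% and 12.1% of all genes). With LPS, 4 of 10 were lower and 0 higher (14.2% and 12.7% of all genes). IDH1, the cytosolic NADPH-forming isocitrate dehydrogenase, was among the lower at -0.47 and -0.59. ME2, mitochondrial malic enzyme, fell without LPS by 0.46 ± 0.08 from 54.3, 52.1 and 54.0 CPM to 41.6, 37.6 and 37.1 CPM (adjusted p = 0.0014) and was at -0.29 with LPS (adjusted p = 0.057). RBKS, ribokinase, rose without LPS by 1.14 from 1.14 CPM in scramble. TKTL1, the other gene called higher, held at most 25 counts in a library. Adipocyte markers were also lower in KD than in scramble, and their part in the falls of this group was not tested. Within groups, PGD, TALDO1 and TKT did not always follow the order of the marker sums. Within the KD group, libraries with summed adipocyte markers of 2283, 1749 and 863 CPM held 170, 152 and 146 CPM of PGD. They held 73.7, 66.7 and 68.5 CPM of TALDO1 and 344, 314 and 354 of TKT. In KD LPS, sums of 1452, 1063 and 689 CPM came with 168, 160 and 146 CPM of PGD. TALDO1 was then at 75.7, 79.1 and 67 CPM and TKT at 288, 325 and 280. Sums of 3854, 4295 and 5193 CPM in scramble came with 401, 357 and 500 CPM of PGD. There TALDO1 was at 142, 133 and 132 CPM and TKT at 503, 485 and 495. In scramble LPS, sums of 4368, 5099 and 4659 CPM came with 608, 624 and 580 CPM of PGD. There TALDO1 was at 155, 142 and 132 CPM and TKT at 480, 531 and 466.

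**Figure D3:**
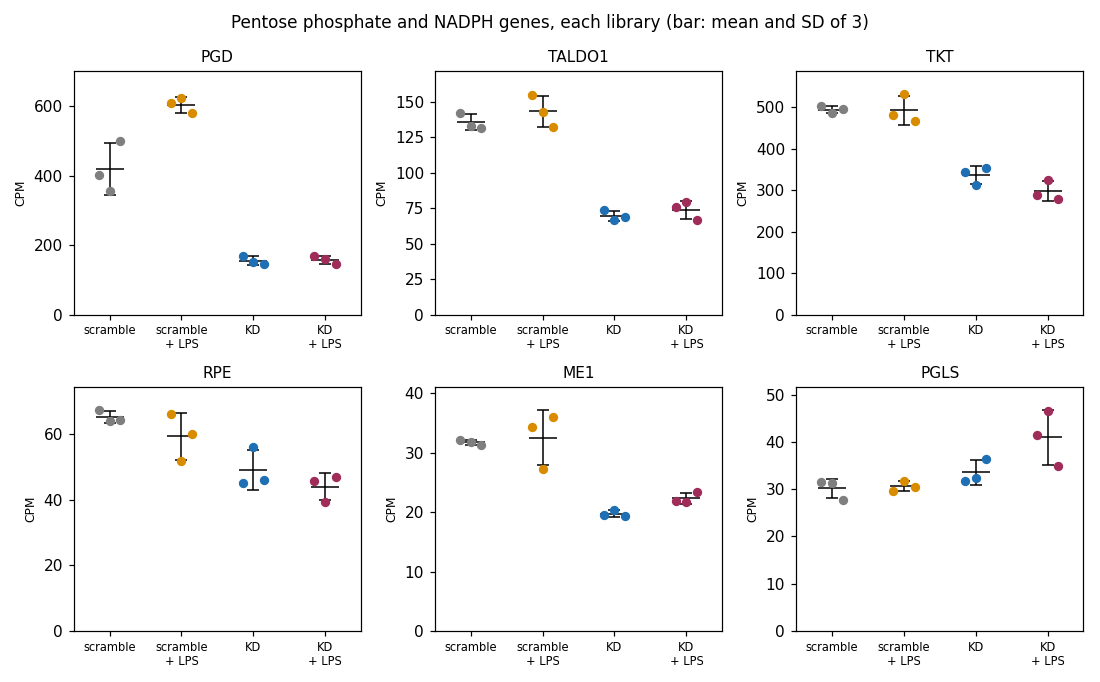
CPM of PGD, TALDO1, TKT, RPE, ME1 and PGLS in each of the 12 libraries (points), with the mean and SD of each group of 3 (bars). In all panels but that of PGLS the KD group lies below scramble and the KD LPS group below scramble LPS, and PGD averages 419 CPM in scramble, 604 in scramble LPS, 156 in KD and 158 in KD LPS.

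The promoters of these genes are shown because members of the group fell together. RefSeq promoter windows (GRCh38.p14, the 250 bases before the annotated start) were matched for 36 of the 39 genes, 65 windows in all since some have several starts. The letters TGACNNNGC, the core of the antioxidant response element that NRF2 binds, were searched on both strands, and 10.9% of all 35116 windows hold them. They occur in 8 of the 65, among them 3 of 7 windows of the pentose and NADPH members, those of PGD, RPE and ME1, shown in capitals in the windows below at 201, 151 and 137 bases before the start (PGD on the opposite strand). The windows are chr1:10398814-10399063 on the plus strand, chr2:210002388-210002637 on the plus strand and chr6:83431052-83431301 on the minus strand. They use RefSeq starts, whereas the gene bounds given above are from GENCODE, so the PGD window lies inside the bounds given for PGD.
PGD: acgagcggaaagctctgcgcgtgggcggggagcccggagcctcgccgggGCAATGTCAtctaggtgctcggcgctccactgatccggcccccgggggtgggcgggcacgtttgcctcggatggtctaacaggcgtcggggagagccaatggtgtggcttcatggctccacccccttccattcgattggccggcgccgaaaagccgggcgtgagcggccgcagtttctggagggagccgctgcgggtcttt
RPE: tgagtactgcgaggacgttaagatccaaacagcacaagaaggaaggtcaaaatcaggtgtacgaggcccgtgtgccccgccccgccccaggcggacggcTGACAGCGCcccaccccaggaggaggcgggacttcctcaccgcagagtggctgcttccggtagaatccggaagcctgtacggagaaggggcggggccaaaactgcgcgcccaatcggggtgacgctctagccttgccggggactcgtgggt
ME1: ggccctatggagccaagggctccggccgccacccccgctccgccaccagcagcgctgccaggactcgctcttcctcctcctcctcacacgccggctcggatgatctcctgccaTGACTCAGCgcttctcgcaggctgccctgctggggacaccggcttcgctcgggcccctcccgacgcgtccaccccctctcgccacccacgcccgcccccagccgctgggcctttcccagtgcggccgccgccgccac

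The same letters occur in windows of ALDOC, GAPDH, HK1 (1 of its 7), PFKL and PKM, of which HK1 fell and ALDOC rose without LPS, and are not in the windows of TALDO1 and TKT. A match is a description of these letters and not of binding.

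A second set of windows is shown for the lactate genes, which moved in opposite directions, with SLC16A3 higher and LDHA lower. The letters ACGTG, the core of the hypoxia response element, occur on either strand in 18.5% of all windows and in 21 of the 65 windows of members, and CACGTG, the E-box that contains ACGTG, in 6.34% of all windows and in 8 of the 65. The capitals mark ACGTG or its complement (CACGTG where both strands match), with 2 matches in SLC16A3 (chr17:82228792-82229041, plus strand) and 5 over both strands in LDHA (chr11:18394313-18394562, plus strand). The other 4 windows of SLC16A3 and the other 1 of LDHA hold no such letters.
SLC16A3: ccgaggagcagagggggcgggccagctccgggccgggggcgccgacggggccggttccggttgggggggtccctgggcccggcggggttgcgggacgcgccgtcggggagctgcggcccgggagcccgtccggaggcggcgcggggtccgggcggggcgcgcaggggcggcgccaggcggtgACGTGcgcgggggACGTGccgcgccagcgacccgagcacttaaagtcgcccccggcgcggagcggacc
LDHA: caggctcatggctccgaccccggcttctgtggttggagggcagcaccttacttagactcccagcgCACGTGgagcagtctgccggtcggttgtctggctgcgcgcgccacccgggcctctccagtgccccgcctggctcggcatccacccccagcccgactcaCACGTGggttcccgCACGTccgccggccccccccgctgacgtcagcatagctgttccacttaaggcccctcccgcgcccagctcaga

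Hypoxia targets outside glycolysis moved both ways in KD, with 5 of 16 higher and 7 lower without LPS (12.1% and 15.1% of all genes). With LPS, 6 were higher and 3 lower (12.7% and 14.2% of all genes). DDIT4, an inhibitor of mTORC1, rose by 2.26 and 2.42, and STC2, a secreted glycoprotein, by 2.21 and 3.19, while P4HA2, a collagen prolyl hydroxylase, fell by 0.78 and 0.73 and CA12, a carbonic anhydrase, by 0.67 and 1.01. Of 12 regulators of glucose genes tested, 2 were higher and 4 lower without LPS, and 1 higher and 4 lower with LPS, beside the same shares of all genes. SREBF1, the lipogenic regulator SREBP1, fell by 1.23 ± 0.10 and 1.42 ± 0.13, and MLXIP, the glucose-sensing factor MondoA, by 0.74 and 0.70. EPAS1, which encodes HIF2A, rose by 0.73 and 0.67, and TXNIP, a MondoA target that restrains glucose uptake, rose without LPS by 0.56 and did not pass with LPS (0.31, adjusted p = 0.052).

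Glycogen and gluconeogenesis genes were lower in 6 and higher in 2 of 15 tested without LPS (15.1% and 12.1% of all genes). With LPS they were lower in 6 and higher in 3 (14.2% and 12.7% of all genes). GBE1, the glycogen branching enzyme, fell by 1.07 and 0.94, from 506, 592 and 622 CPM to 264, 306 and 249 CPM without LPS. PPP1R3C, a subunit that targets phosphatase 1 to glycogen, fell by 1.05 and 0.74 on the log2 scale. PYGL, the liver glycogen phosphorylase, rose by 0.89 and 0.73, from 38.7, 38.5 and 39.6 CPM to 68.6, 76.4 and 70.7 CPM, and PCK2, the mitochondrial phosphoenolpyruvate carboxykinase, rose by 0.92 and 0.98.

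Ratios between related genes within a library describe how a step shifts from one gene to another. They are log2 ratios of reads without length correction, so only their shifts between groups are read. SLC2A3 to SLC2A1 averaged -0.57 ± 0.09 (SD, n = 3) in scramble and 0.94 ± 0.29 in KD, and -0.17 ± 0.10 in scramble LPS and 0.25 ± 0.29 in KD LPS, without overlap in either KD comparison. SLC16A3 to SLC16A1 moved from -2.06 ± 0.16 to -0.66 ± 0.38 without LPS and from -2.55 ± 0.08 to -0.59 ± 0.19 with LPS. LDHA to LDHB moved from 2.29 ± 0.09 to 1.92 ± 0.03 without LPS, while with LPS the groups overlapped. PFKP to PFKL was 1.62 in scramble, 0.60 in scramble LPS, 1.25 in KD and 0.30 in KD LPS, with no overlap between any compared pair of groups. HK2 to HK1 overlapped between KD and scramble with and without LPS.

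**Figure D4:**
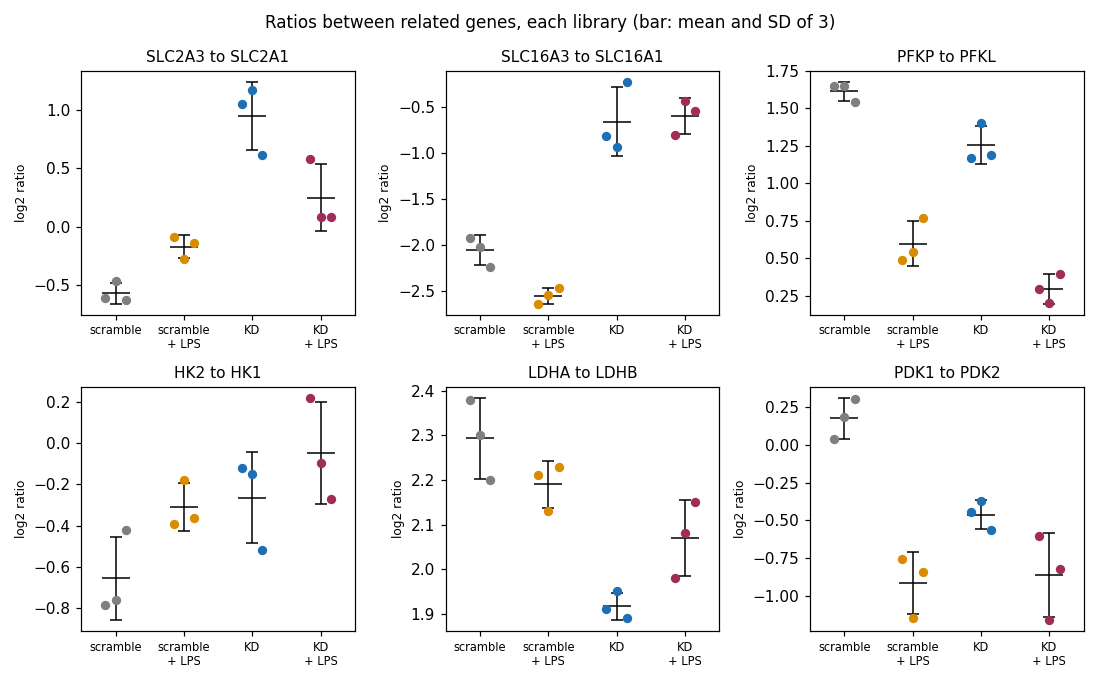
Log2 ratio of reads between related genes in each of the 12 libraries (points), with the mean and SD of each group of 3 (bars). The ratio of SLC16A3 to SLC16A1 sits between -2.64 and -1.92 in the 6 scramble libraries and between -0.93 and -0.22 in the 6 KD libraries, and the ratio of PFKP to PFKL is lower with LPS in both backgrounds.

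LPS in scramble adipocytes lowered SLC2A1, the lactate carriers SLC16A1, SLC16A3 and SLC16A7, HK1, PFKP, TPI1, PGAM1, ENO1 and PDK1, and raised SLC2A6, PFKFB3 and PGD. That is 3 of 39 higher (7.69%, against 5.9% of all genes tested) and 10 lower (25.6%, against 8.38%), with 2 changed at least 2-fold (5.13%, against 2.68%). In KD adipocytes LPS gave 3 higher (7.69%, against 5.32%) and 6 lower (15.4%, against 6.03%), with 1 changed at least 2-fold (2.56%, against 2.25%). In both backgrounds 7 members passed, SLC2A1, SLC2A6, SLC16A1, HK1, PFKP, PFKFB3 and ENO1, and 6 of them went the same way, with SLC2A1 the exception. Over all 15258 genes tested in both, 1065 passed in both and 1048 of these went the same way. The lower count in KD was 12 in DESeq2, and also 12 with scaling by library size alone, which moved the split of all called genes in that comparison from 46.9% to 35.2% higher. The median log2 fold change was -0.15 over the 39 genes in scramble and -0.16 in KD, against 0.02 and 0.01 over all genes.

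**Figure D5:**
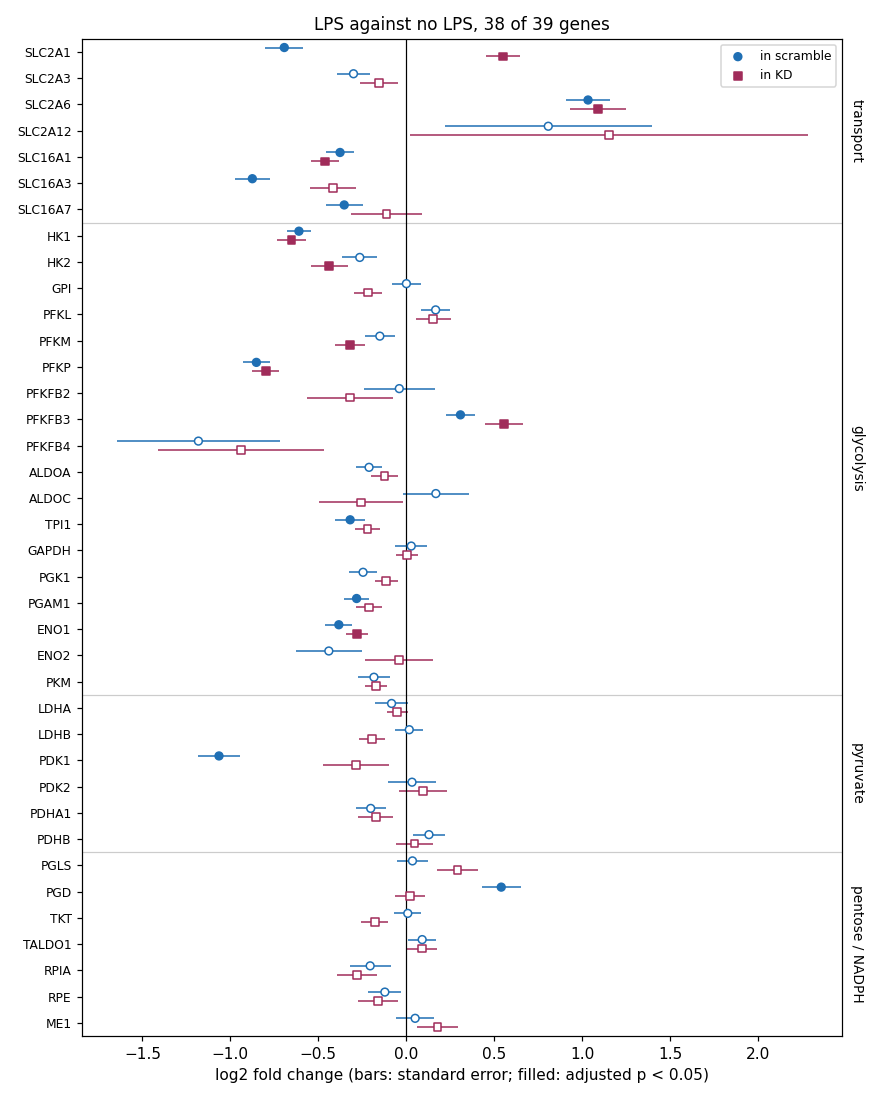
Log2 fold change (horizontal axis) of 38 of the 39 genes with LPS against without, in scramble (blue circles) and KD adipocytes (purple squares), grouped by role. Bars are standard errors and filled symbols passed at an adjusted p under 0.05. PDK3 is left out as before. SLC2A6 lies farthest to the right among filled symbols at 1.03 and 1.09, PFKP lies at -0.85 and -0.80, and SLC2A1 on opposite sides of 0.

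SLC2A6, which inflammatory stimuli are known to induce in macrophages, was the member with the largest called rise with LPS. It stood at 11.1, 9.68 and 9.69 CPM in scramble and 18.5, 23.0 and 20.4 in scramble LPS, and at 8.15, 7.06 and 10.2 CPM in KD and 17.6, 18.3 and 18.2 in KD LPS. The groups did not overlap, and the rise was 1.03 ± 0.12 in scramble and 1.09 ± 0.16 in KD (adjusted p = 0.00019 and 0.00031). PFKFB3, the inducible activator of glycolysis, rose from 46.8, 50.6 and 51.5 CPM to 56.3, 62.3 and 64.0 CPM in scramble and from 58.3, 44.9 and 46.1 CPM to 73.8, 76.2 and 68.9 CPM in KD. Its change was 0.31 ± 0.08 and 0.55 ± 0.11 (adjusted p = 0.03 and 0.0031), and the call in scramble was lost without scramble LPS replicate 3 (adjusted p = 0.12). PGD rose with LPS in scramble by 0.54 ± 0.11 (adjusted p = 0.007) and was at 0.02 ± 0.08 in KD (adjusted p = 0.93).

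PFKP and HK1 fell with LPS in both backgrounds. PFKP fell by 0.85 ± 0.08 in scramble and 0.80 ± 0.08 in KD on the log2 scale (adjusted p = 2.1e-05 and 7.0e-06). HK1 held 95.9, 98.2 and 95.8 CPM in scramble LPS and 71.8, 78.5 and 80.6 CPM in KD LPS, falls of 0.61 ± 0.07 and 0.65 ± 0.08 (adjusted p = 0.00012 and 7.0e-05). The interaction terms were 0.07 ± 0.11 for PFKP and -0.03 ± 0.10 for HK1 and did not pass. HK2 fell with LPS in KD from 111, 105 and 87.6 CPM to 83.7, 73.4 and 66.9 CPM, by 0.44 ± 0.11 (adjusted p = 0.014), and was at -0.27 in scramble (adjusted p = 0.1). The HK2 call in KD was lost without KD replicate 1 (0.069), KD LPS replicate 2 (0.058) or KD LPS replicate 3 (0.084).

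ENO1, enolase, fell with LPS from 1263, 1195 and 1121 CPM to 947, 900 and 872 CPM in scramble and from 1118, 1028 and 1175 CPM to 900, 933 and 900 CPM in KD. The changes were -0.38 ± 0.08 and -0.28 ± 0.07 (adjusted p = 0.0058 and 0.01), and the call in KD was lost without KD LPS replicate 1 (adjusted p = 0.05). TPI1 and PGAM1 fell in scramble by 0.32 and 0.28 and were at -0.22 and -0.21 in KD without passing. PFKM fell in KD by 0.32 ± 0.09, from 73.8, 76.2 and 77.0 CPM to 60.2, 57.3 and 64.1 CPM (adjusted p = 0.024), a call lost without KD LPS replicate 2 (adjusted p = 0.089).

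The lactate carriers were lower with LPS in scramble. SLC16A1 fell from 208, 212 and 221 CPM to 174, 148 and 167 CPM in scramble and from 190, 211 and 187 CPM to 148, 134 and 144 CPM in KD, by 0.38 ± 0.08 and 0.46 ± 0.08 (adjusted p = 0.0088 and 0.0011). SLC16A3 fell in scramble by 0.88 ± 0.10 (adjusted p = 0.0001) and was at -0.42 ± 0.13 in KD (adjusted p = 0.055). SLC16A7 fell in scramble from 26.1, 26.6 and 25.7 CPM to 19.6, 18.3 and 22.8 CPM (-0.35 ± 0.10, adjusted p = 0.044), a call lost in the fit on all 12 libraries (adjusted p = 0.22) and on leaving out any 1 of the 6 libraries other than scramble LPS replicate 3 (0.079 to 0.15).

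PDK1 fell with LPS in scramble from 16.9, 16.0 and 17.5 CPM to 8.18, 7.99 and 7.71 CPM, by 1.06 ± 0.12 on the log2 scale (adjusted p = 0.0001), and was at -0.29 ± 0.19 in KD. Its interaction term was 0.79 ± 0.23, with an adjusted p of 0.11 in edgeR, and it passed in DESeq2. PDK4 rose with LPS in scramble by 1.12 and was at 0.33 in KD. The pentose and NADPH members other than PGD did not pass with LPS in either background.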

How the data were processed

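Poly(A) RNA from adipocytes made from 1 immortalized line was sequenced from stranded mRNA libraries. Per the labels and the methods, the authors pseudoaligned reads with kallisto 0.44.0 to GRCh38 and deposited estimated counts per gene as whole numbers. Estimated counts divide reads among similar transcripts, so paralogs can share reads; processed pseudogenes of the members held little. A row without a gene name held 0.235% to 0.306% of counts and was left out. Each pair of groups was fitted on its 6 libraries and the interaction on all 12 with edgeR 4.0.16 (quasi-likelihood test, TMM scaling, at least 10 counts in total), with p-values adjusted by Benjamini-Hochberg over all genes tested and called under 0.05. Values shown per library are CPM after TMM scaling. Standard errors of fold changes were derived from the test, as the absolute log2 fold change divided by the square root of its F statistic. DESeq2 1.42.0, other scalings and filters, a replicate block, pseudogene counts added and each library left out were alternatives. The scripts were run on simulated data, with the pass rule set after a first version had failed. That run is not a check of the calls reported here. Members and lists were chosen with earlier results of these data known. Values are given in full for GAPDH, for up to 8 members per direction with the largest called change, no overlap between groups and 50 or more counts in the average library, and for members with a called interaction, and for up to 2 genes per direction of each other list. In addition, 1 gene was taken out of the other lists and is not reported here.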

Additional observations from a re-analysis of the deposited data

Results flagged for a closer look

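The KD effect on SLC2A1 differed between cells without and with LPS by the interaction term of the fit over all 12 libraries, at 1.25 on the log2 scale (adjusted p = 0.00025, edgeR's quasi-likelihood test). Without LPS, all 3 KD libraries were below all 3 scramble libraries, and with LPS all 3 were above them.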

How the results depend on the processing

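Of 49 results on single genes, 36 kept their direction and their side of the threshold under each alternative run, 9 lost the call under at least 1, and 4 changed sign. The 4 are the uncalled values of GAPDH. For LPS they were -0.0121 in scramble and -0.0476 in KD with library size only, and in KD -0.00435 with edgeR's filterByExpr and -0.00406 without the 100 most abundant genes. Leaving out 1 library moved them to between -0.00847 and 0.143 for KD without LPS, -0.00854 and 0.0987 for KD with LPS, -0.0331 and 0.121 for LPS in scramble and -0.0484 and 0.0465 for LPS in KD. Leaving out 1 library gave 2 to 4 higher members in KD without LPS (2 without scramble replicate 2 or KD replicate 3), 3 to 5 in KD with LPS (3 without scramble LPS replicate 3 or KD LPS replicate 2), and 4 to 10 lower members for LPS in KD (10 without KD replicate 2). It gave 1 to 2 members changed 2-fold by LPS in scramble (1 without scramble replicate 2 or 3 or scramble LPS replicate 2), 0 to 1 in KD (0 without KD replicate 2), and 1 to 2 with an interaction (2 without scramble replicate 3 or KD replicate 3). Library size only gave 1 member changed 2-fold by LPS in scramble and 12 lower members for LPS in KD, as did DESeq2 (12), and DESeq2 gave 3 members with an interaction (SLC2A1, PGD and PDK1) and no filter gave 2. The causes were not tested. Library size only shifted the median over all genes in KD without LPS by 0.105 on the log2 scale. Replicate numbers are shared in the labels, and the deviations of same-numbered libraries correlated unevenly (over 11811 genes). They were positive in all 3 pairs of scramble and scramble LPS (r = 0.0991, 0.136 and 0.28, against -0.19 to 0.0764 for other numbers), negative in all 3 of scramble and KD (-0.125 to -0.0465), mixed in KD and KD LPS (-0.154 to 0.119) and 0.0158 to 0.205 in scramble LPS and KD LPS. In no pair of groups did all 3 exceed 0.1, and 8 of 12 libraries correlated best with their own number, a hint of pairing from the data and not from the design. With the replicate block, member counts were 3 higher and 12 lower in KD without LPS, 5 and 14 with LPS, 3 and 14 for LPS in scramble, 3 and 7 for LPS in KD, and 1 interaction. Depth limits the members with few counts, and the call on PDK3 rests on few counts. SLC2A12 and PFKFB4 did not pass edgeR's test in any comparison. PFKFB4 was at -1.18 ± 0.46 with LPS in scramble and -0.94 ± 0.47 in KD (adjusted p = 0.12 and 0.26), without overlap of groups. With KD it was at 0.38 without LPS, without overlap, and at 0.63 with LPS, with overlap.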
